A study of Homo sapiens with 23 samples.

Results

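The 40 genes described here belong to glycolysis and to the transcriptional response to hypoxia, and were measured by RNA-seq in 4 established ovarian cancer cell lines and in their prexasertib-resistant derivatives. They were picked by name from the deposited table through their NCBI Gene IDs, and all 40 were found among its 21658 genes. They comprise 17 enzymes of glycolysis and lactate formation, 5 carriers and regulators of glucose and lactate flux, 16 other targets of the hypoxia-inducible factors (HIF), and the 2 HIF alpha subunits HIF1A and EPAS1 (HIF-2alpha). No threshold on their values was used to choose them, but they were chosen with earlier results of these data known. Comparisons with all genes below are therefore descriptions.

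The table holds 23 libraries in 8 groups: Kuramochi, OVSAHO, OV-90 and EFO-21 cells, each as the parental line and as the prexasertib-resistant line. Every group had 3 libraries except parental OV-90, which had 2. Prexasertib is a small-molecule inhibitor of the checkpoint kinase CHK1, which restrains cells with damaged or incompletely copied DNA from entering mitosis. Resistance had been raised in culture by stepwise increases of the drug, and the labels name 1 resistant derivative per line, so a difference may belong to that derivative rather than to resistance as such. The libraries came from replicate cultures of each parental and resistant line, so the p-values below measure the spread between cultures of 1 derivative and its parent. The oxygen tension of the cultures, and whether drug was present in the medium at harvest, are not given in the sources used here.

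HIF is a heterodimer of an oxygen-labile alpha subunit and the stable partner ARNT. With oxygen present, the prolyl hydroxylases of the EGLN family mark the alpha subunit for destruction by the VHL ubiquitin ligase, and in hypoxia the dimer binds short elements with a CGTG core and raises genes for glucose uptake, glycolysis, acid export, angiogenesis and mitophagy. Because alpha subunits are controlled mainly as proteins, mRNA levels of HIF1A and EPAS1 are not a measure of HIF activity, and several of the target genes also respond to other factors. Many cancer cell lines run high aerobic glycolysis, in which pyruvate is reduced to lactate although oxygen is present.

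Values below are the deposited log2 expression values, and changes are resistant minus parental differences of log2 values, where 1 is a 2-fold difference, given ± the standard error of the limma fit. With no counts in the table, sequencing depth is unknown, and precision rests on the spread between libraries alone. A gene is called changed at a limma adjusted p under 0.05 (Benjamini-Hochberg over 21658 genes) and a difference of at least 2-fold, and "rose" and "fell" are used for such genes, or, where the text says so, for an adjusted p under 0.05 at any size. Each library's lowest 10% of values, with upper limits between 1.7 and 1.87, are called the bottom of the range, where a log2 difference is no measured fold. Libraries of the same group correlated across genes at r = 0.9711 to 0.9875, except the 2 parental OV-90 libraries at 0.9524, and each OV-90 result rests on that pair. Library numbers, which run from 2 to 12 in parental and from 13 to 24 in resistant lines, are used as names here, so that any handling that followed these numbers cannot be told apart from resistance. Of 8 epithelial and ovarian markers, MUC16 lay at the bottom in all OV-90 libraries and WT1 in all EFO-21 libraries, and the log2 of the summed level of the list ran from 12.53 to 13.63 in parental and from 11.46 to 13.38 in resistant libraries, being lower in resistant than in parental libraries of every line. The corresponding ranges were 6.48 to 13.25 and 6.9 to 12.23 for 6 fibroblast markers, and 6.01 to 8.35 and 5.1 to 7.08 for 5 leukocyte and red cell markers, among which HBB fell in OVSAHO from a mean of 5.24 to 0.02, at the bottom. The part of these differences in the results below was not tested.

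In resistant Kuramochi cells 7 of the 40 genes rose and 2 fell, against 11.8% and 10.6% of all genes tested. In resistant OVSAHO cells 1 gene rose and 0 fell, against 3.93% and 3.83% of all genes. At an adjusted p under 0.05 of any size in the limma test 6 were higher and 7 lower in OVSAHO, close to the 17.1% and 16.2% of all genes there. In resistant OV-90 cells 10 rose and 1 fell, where 9.5% of all genes rose and 6.56% fell. In resistant EFO-21 cells 0 rose and 6 fell, with 7.11% and 7.15% of all genes as background, and at an adjusted p under 0.05 of any size 2 were higher and 27 lower (25% and 23.4% of all genes). The 9 changed of 40 in Kuramochi are the share found among all genes there, and the 1 changed gene in OVSAHO is below it. The OV-90 count rests on its parental pair and on all 3 resistant libraries: without any 1 of the latter 3 of the 40 genes (NDRG1, EGLN3 and LOX) and between 309 and 425 of all genes were called. Across lines, 5 genes changed in at least 2 lines (SLC2A1, BNIP3, EGLN3, EPAS1 and LOX), and 3 of them, EGLN3, EPAS1 and BNIP3, rose in a line or lines and fell in another.

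**Figure D1:**
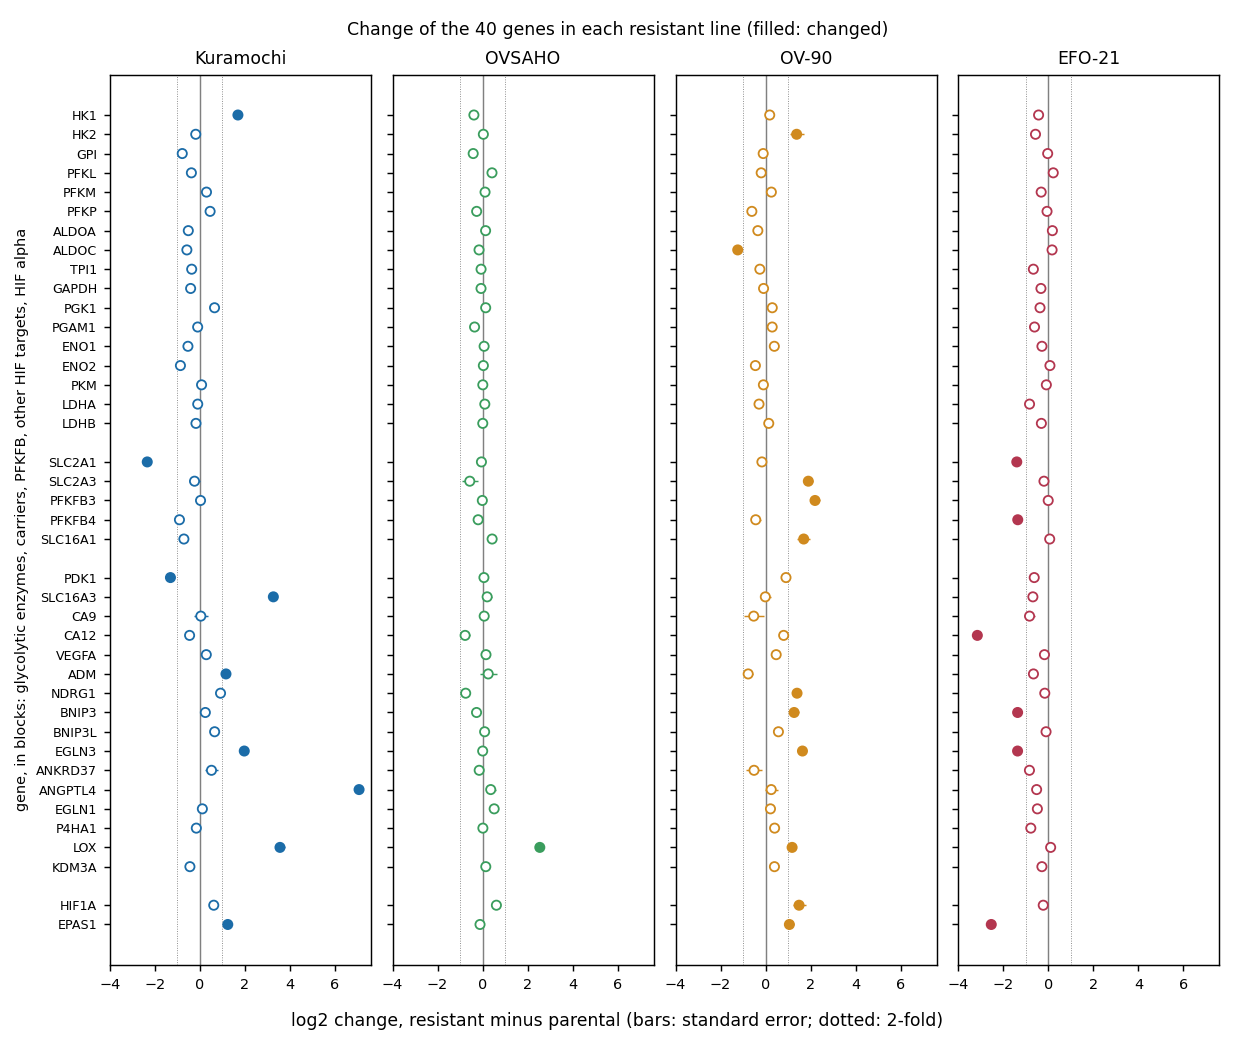
Log2 change (resistant minus parental, x axis) of the 40 genes (y axis, in blocks by role) in the 4 lines. Points are limma estimates, bars are standard errors (often shorter than the point), filled points passed the threshold, and the dotted lines mark 2-fold. The largest rise is that of ANGPTL4 in Kuramochi (7.08), and EFO-21 has filled points to the left of 0 only.

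The 5 genes that changed in at least 2 lines are shown with the sequence before their start sites, because HIF binds ACGTG or GCGTG and their promoters differ in how many such words they hold. The sequences are the 250 bases before the RefSeq start site (table of build GRCh38.p14), written 5′ to 3′ on the strand of the gene, and each was found once, by exact match, on its chromosome in GRCh37, whose positions are given. Capitals mark ACGTG or GCGTG on either strand, with overlapping matches merged. BNIP3 (chr10:133795428-133795677, minus strand, 5 marked words), LOX (chr5:121413955-121414204, minus strand, 4), EPAS1 (chr2:46524296-46524545, plus strand, 1), EGLN3 (chr14:34420281-34420530, minus strand, 0) and SLC2A1 (chr1:43424540-43424789, minus strand, 0) read as follows.
BNIP3: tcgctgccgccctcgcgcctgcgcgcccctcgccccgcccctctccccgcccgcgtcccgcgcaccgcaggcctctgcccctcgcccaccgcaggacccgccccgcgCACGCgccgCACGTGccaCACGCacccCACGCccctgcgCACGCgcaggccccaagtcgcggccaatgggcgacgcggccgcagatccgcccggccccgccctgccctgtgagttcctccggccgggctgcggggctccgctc
LOX: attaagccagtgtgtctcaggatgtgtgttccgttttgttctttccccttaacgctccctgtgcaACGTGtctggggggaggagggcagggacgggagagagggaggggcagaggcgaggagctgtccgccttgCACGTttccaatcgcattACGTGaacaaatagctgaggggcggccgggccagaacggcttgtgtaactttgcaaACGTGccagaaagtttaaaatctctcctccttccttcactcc
EPAS1: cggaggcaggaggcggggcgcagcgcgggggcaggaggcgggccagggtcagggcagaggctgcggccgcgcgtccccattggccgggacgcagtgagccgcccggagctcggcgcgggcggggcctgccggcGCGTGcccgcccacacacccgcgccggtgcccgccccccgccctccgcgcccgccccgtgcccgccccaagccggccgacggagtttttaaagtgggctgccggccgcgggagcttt
EGLN3: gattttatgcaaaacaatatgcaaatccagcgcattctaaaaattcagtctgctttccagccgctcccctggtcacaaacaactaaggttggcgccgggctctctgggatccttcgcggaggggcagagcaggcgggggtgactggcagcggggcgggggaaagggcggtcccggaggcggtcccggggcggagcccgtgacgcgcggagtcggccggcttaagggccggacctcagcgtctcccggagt
SLC2A1: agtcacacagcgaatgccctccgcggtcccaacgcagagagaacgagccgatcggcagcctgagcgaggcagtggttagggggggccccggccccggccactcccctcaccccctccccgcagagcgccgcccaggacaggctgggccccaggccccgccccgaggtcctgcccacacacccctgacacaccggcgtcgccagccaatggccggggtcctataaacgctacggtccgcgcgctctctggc

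In BNIP3 the marked words lie between 143 and 104 bases before the start site, and the word CACGTG among them is a match on both strands. In LOX they lie 185, 116, 98 and 42 bases before it, and the marked word of EPAS1 begins 117 bases before it. Of the 40 genes, 35 had a promoter in the RefSeq table (SLC2A3, SLC16A1, VEGFA, NDRG1 and BNIP3L did not), and 24 of these (68.6%) held at least 1 match. A match was present in 10 of 17 glycolytic enzymes (58.8%) and in 10 of 13 other HIF targets (76.9%), in 53.8% of the 14340 promoters of genes in the expression table, and in 43.1% of all 27305 promoters. EGLN3, with no match in this window, and BNIP3, with 5, both rose in OV-90 and fell in EFO-21. The absence of a match says only that these letters are not in these 250 bases.

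Of the HIF alpha subunits, EPAS1 rose in Kuramochi and OV-90 and fell in EFO-21, and HIF1A rose in OV-90. EPAS1 (HIF-2alpha; GRCh37 chr2:46520806-46613836) measured 6.82, 6.87 and 6.8 in the parental EFO-21 libraries and 4.54, 4.0 and 4.32 in the resistant ones. All 3 resistant libraries lay more than 2 log2 units below every parental one, and EPAS1 fell by 2.54 ± 0.15 (adjusted p = 9.82e-05). In Kuramochi it measured 6.68, 6.1 and 6.09 in parental and 7.64, 7.66 and 7.32 in resistant libraries, and rose by 1.25 ± 0.19 (adjusted p = 0.00272). In OV-90 the values were 6.55 and 7.18 in parental and 7.93, 7.79 and 8.06 in resistant libraries, a rise of 1.06 ± 0.22 (adjusted p = 0.0271), a call lost without parental library 2 (change 0.742) or any 1 of the resistant libraries. OVSAHO, with parental values of 6.35, 6.52 and 6.63 and resistant values of 6.39, 6.49 and 6.27, showed overlapping groups and a difference of -0.12 ± 0.10 (adjusted p = 0.419).

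HIF1A (chr14:62162231-62214977), the other alpha subunit, passed the 2-fold threshold in OV-90 alone. In EFO-21 it measured 10.47, 10.33 and 10.42 in parental and 10.18, 10.16 and 10.19 in resistant libraries, a difference of -0.23 ± 0.041 (adjusted p = 0.0056) that did not reach 2-fold. In OV-90 the parental pair measured 6.13 and 7.07, both below the resistant 8.15, 7.98 and 8.14. HIF1A rose there by 1.49 ± 0.29 (adjusted p = 0.0256), a call lost without any 1 of the 3 resistant libraries (adjusted p up to 0.1). Kuramochi went from 9.82, 9.35 and 9.31 in the parent to 10.21, 10.31 and 9.83, with every resistant library above the parental ones and a difference of 0.62 ± 0.18 (adjusted p = 0.0314). OVSAHO went from 7.85, 7.92 and 8.14 in the parent to 8.47, 8.68 and 8.6, a difference of 0.61 ± 0.091 (adjusted p = 0.00479). In 3 of the lines HIF1A was thus higher at an adjusted p under 0.05, with a 2-fold size in OV-90 alone. The Kuramochi difference no longer met that p without parental library 5 or 6 or resistant library 16 or 17 (adjusted p up to 0.0992), or after centring libraries on 10 reference genes (0.561, adjusted p = 0.092). The small EFO-21 difference became -0.097 after that centring (adjusted p = 0.114), and with all 23 libraries in 1 fit its adjusted p was 0.33.

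EGLN3 (chr14:34393433-34931980), a prolyl hydroxylase that marks HIF alpha for destruction and is itself a HIF target, rose in Kuramochi and OV-90 and fell in EFO-21. In Kuramochi it measured 7.67, 7.52 and 7.53 in parental and 9.55, 9.55 and 9.55 in resistant libraries. It rose by 1.98 ± 0.063, or 3.95-fold (adjusted p = 9.11e-06). In OV-90 the values were 7.88 and 7.72 (parental) and 9.43, 9.39 and 9.49 (resistant), a rise of 1.64 ± 0.078 (adjusted p = 0.00368) that held without each library in turn. In EFO-21 it went from 7.06, 7.37 and 7.11 in the parent to 5.61, 6.08 and 5.73, a fall by 1.37 ± 0.15 (adjusted p = 0.000854). OVSAHO, the line with the lowest EGLN3, had 3.34, 3.4 and 3.66 in parental and 3.32, 3.49 and 3.61 in resistant libraries, which overlapped (difference 0.0026 ± 0.17, adjusted p = 0.993).

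EGLN1 (chr1:231499497-231558033), the main prolyl hydroxylase of HIF-1alpha in most cells, passed the 2-fold threshold in none of the lines. It measured 7.53, 7.59 and 7.65 in parental and 8.13, 8.13 and 8.06 in resistant OVSAHO (difference 0.51 ± 0.049, adjusted p = 0.00111). In EFO-21 it measured 7.39, 7.44 and 7.31 in parental and 6.72, 6.9 and 7.06 in resistant libraries (difference -0.49 ± 0.094, adjusted p = 0.00722). In Kuramochi, values of 7.81, 7.64 and 7.8 (parental) and 7.85, 7.89 and 7.86 (resistant) differed by 0.12 ± 0.073, and in OV-90 values of 7.04 and 7.14 (parental) and 7.35, 7.22 and 7.36 (resistant) differed by 0.22 ± 0.093, with adjusted p = 0.231 and 0.12. Small differences of EGLN1 were thus resolved in OVSAHO, upward, and in EFO-21, downward.

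The 10 further genes of HIF control were ARNT, ARNT2, HIF3A, EGLN2, the asparaginyl hydroxylase HIF1AN, and VHL with partners ELOB, ELOC, CUL2 and RBX1. Of these 0 rose and 1 fell in Kuramochi (11.8% and 10.6% of all genes), and 0 changed in OVSAHO (3.93% and 3.83%). In OV-90 1 rose and 1 fell (9.5% and 6.56%), and in EFO-21 1 rose and 0 fell (7.11% and 7.15%). With 10 genes, counts of 0 or 1 are close to these shares. HIF3A, an alpha subunit whose splice forms can restrain HIF, fell in Kuramochi from a mean of 5.25 to 0.7 at the bottom of the range and rose in EFO-21 from 2.92 to 4.66 (1.74 ± 0.16 SE, adjusted p = 0.000493), and it lay at the bottom in all 6 OVSAHO libraries. VHL, the substrate receptor of the ligase, rose in OV-90 from 6.25 to 7.57 (1.32 ± 0.19 SE, adjusted p = 0.0168), and its ring protein RBX1 fell there from 9.04 to 8.02 (-1.01 ± 0.14 SE, adjusted p = 0.0155). ARNT, the shared partner, differed by 0.02, 0.16, 0.62 and 0.28 in Kuramochi, OVSAHO, OV-90 and EFO-21. The remaining differences in this list lay between -0.89 and 0.64.

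**Figure D2:**
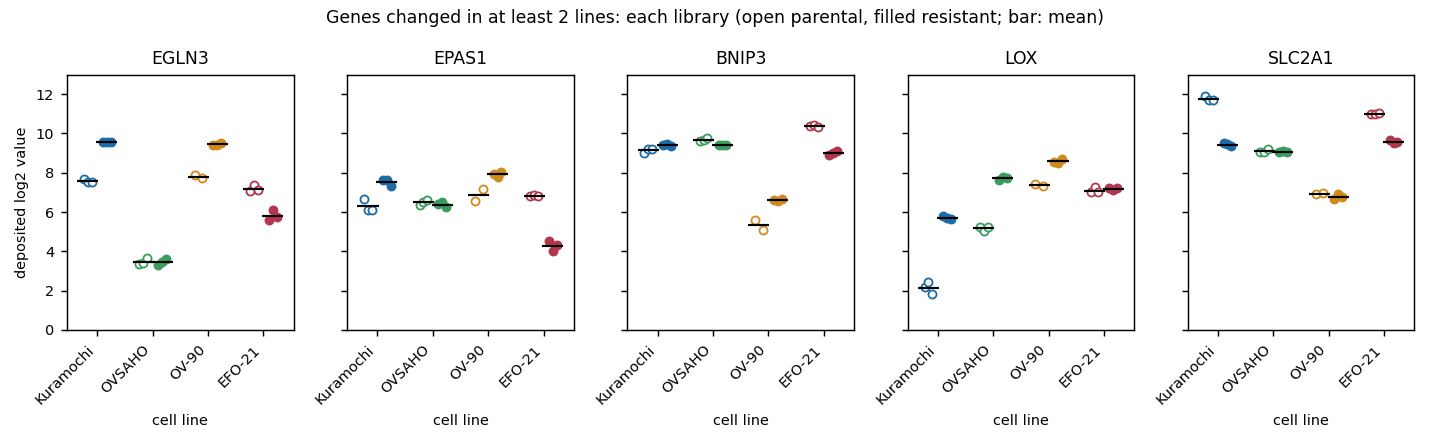
Deposited log2 value (y axis) of the 5 genes that changed in at least 2 lines, in every library, by cell line (x axis). Open points are parental and filled points resistant libraries, and bars are group means. EGLN3 and EPAS1 are higher in resistant Kuramochi and OV-90 and lower in resistant EFO-21, and SLC2A1 is lower in resistant Kuramochi and EFO-21.

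BNIP3 (chr10:133781188-133795471), a mitochondrial outer membrane protein that recruits the autophagy machinery, measured 10.4, 10.43 and 10.31 in parental and 8.9, 9.03 and 9.1 in resistant EFO-21 libraries and fell by 1.37 ± 0.061 (adjusted p = 4.38e-05). In OV-90 it measured 5.62 and 5.07 (parental) and 6.62, 6.57 and 6.66 (resistant), a rise of 1.27 ± 0.20 (adjusted p = 0.0181) from the lowest parental level among the 4 lines, lost without parental library 3 or any resistant library. Kuramochi, with 9.02, 9.23 and 9.23 (parental) and 9.42, 9.44 and 9.36 (resistant), and OVSAHO, with 9.64, 9.65 and 9.78 (parental) and 9.41, 9.41 and 9.44 (resistant), had groups that did not overlap but differed by only 0.25 ± 0.075 and -0.27 ± 0.044. Its relative BNIP3L, with a like role in mitophagy, did not reach 2-fold in any line: it differed by 0.66 ± 0.071 in Kuramochi and 0.57 ± 0.085 in OV-90 (adjusted p = 0.000609 and 0.0172), and by 0.09 ± 0.062 and -0.11 ± 0.045 in OVSAHO and EFO-21.

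LOX (chr5:121398890-121414108), the lysyl oxidase that crosslinks collagen and elastin, rose in 3 lines. In Kuramochi it went from 2.2, 2.46 and 1.81, near the bottom of the range (1 of the 3 libraries lay in it), to 5.8, 5.7 and 5.67, a rise of 3.57 ± 0.22 (adjusted p = 7.50e-05). In OVSAHO it went from 5.25, 5.04 and 5.24 in the parent to 7.63, 7.77 and 7.76, or 5.83-fold (log2 2.54 ± 0.086, adjusted p = 5.00e-05), and it was the only 1 of the 40 genes called changed in that line. In OV-90 it went from 7.44 and 7.35 in the parent to 8.55, 8.51 and 8.68, a rise of 1.18 ± 0.086 (adjusted p = 0.0056). EFO-21 values of 7.04, 7.25 and 7.0 (parental) and 7.24, 7.12 and 7.23 (resistant) overlapped (difference 0.099 ± 0.082, adjusted p = 0.358). Among the parental lines LOX was lowest in the line in which it then rose most, and resistant levels still ranged from 5.72 in Kuramochi to 8.58 in OV-90. Of the 6 fibroblast markers 2 rose and 3 fell in Kuramochi. In OVSAHO 2 rose (DCN by 4.22 and LUM by 4.73) and 2 fell (COL1A1 by 1.54 and COL1A2, to the bottom, by 4.78). In OV-90 0 were called changed, although all differences were downward, from -0.22 to -3.31, and COL1A2 lay at the bottom in all resistant libraries. THY1 alone had an adjusted p under 0.05 there, with -0.98. In EFO-21 1 of the 6 markers rose. The log2 of their summed level was lower in resistant Kuramochi (6.9 to 7.07, against 8.57 to 9.02 in the parent) and OV-90 (12.09 to 12.23, against 12.42 to 13.25), and higher in resistant OVSAHO (7.93 to 8.07, against 7.01 to 7.19) and EFO-21 (6.92 to 7, against 6.48 to 6.81), and the part of these markers in the LOX differences was not tested.

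SLC2A1 (GLUT1, the main glucose carrier of most cultured cells; chr1:43391024-43424564) fell in the 2 lines whose parents had the most of it. In Kuramochi it measured 11.9, 11.68 and 11.72 in parental and 9.51, 9.45 and 9.34 in resistant libraries. It fell by 2.33 ± 0.080, to 0.199 of the parental level (adjusted p = 1.09e-05). In EFO-21 it went from 10.99, 10.98 and 11.02 in the parent to 9.68, 9.53 and 9.55, a fall by 1.41 ± 0.046 (adjusted p = 1.79e-05). OVSAHO had 9.08, 9.08 and 9.23 (parental) and 9.07, 9.11 and 9.05 (resistant), with overlapping groups (difference -0.053 ± 0.051, adjusted p = 0.478). OV-90, which had the lowest level, measured 6.9 and 6.99 (parental) and 6.67, 6.91 and 6.77 (resistant) (difference -0.16 ± 0.12, adjusted p = 0.312), and the sign of the OVSAHO and OV-90 differences turned when libraries were centred on 10 reference genes. After resistance the Kuramochi, OVSAHO and EFO-21 means lay between 9.08 and 9.59, where parental means had ranged from 9.13 to 11.77.

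SLC2A3 (GLUT3, a high-affinity glucose carrier) was above the bottom of the range in OV-90 libraries and in 1 parental OVSAHO library. In OV-90 it rose from 6.23 and 6.9 in the parent to 8.49, 8.4 and 8.52 (1.90 ± 0.21, adjusted p = 0.0112), and resistant OV-90 thus had 3 libraries between 8.4 and 8.52 of a gene that the other lines held at or below 1.89. PFKFB3 (chr10:6186897-6296607) makes the allosteric activator of phosphofructokinase, and showed the largest rise in OV-90, from 3.87 and 4.45 in the parent to 6.36, 6.34 and 6.39, or 4.59-fold (log2 2.20 ± 0.22, adjusted p = 0.00946). In the other 3 lines PFKFB3 differed by 0.036 ± 0.10, -0.013 ± 0.067 and -0.009 ± 0.083, all with overlapping groups. Resistant OV-90 values of PFKFB3 thereby came to the 6.31 to 7.14 in which the resistant libraries of the other lines lay. Its relative PFKFB4, a classical HIF target, fell in EFO-21 from a range of 5.54 to 5.69 to one of 4.12 to 4.49 (-1.36 ± 0.14, adjusted p = 0.000703) and differed by -0.90 ± 0.14 in Kuramochi (adjusted p = 0.00278), short of 2-fold. SLC16A1 (MCT1, a lactate and pyruvate carrier) rose in OV-90 from 7.76 and 8.74 in the parental pair to at least 9.86 in each resistant library (1.70 ± 0.30, adjusted p = 0.0219). The OV-90 calls of SLC2A3, PFKFB3 and SLC16A1 were each lost without any 1 of the 3 resistant libraries, with adjusted p up to 0.0678, 0.0641 and 0.0924.

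Few of the 17 enzymes from hexokinase to lactate dehydrogenase passed the 2-fold threshold. In Kuramochi 1 rose (HK1) and 0 fell, against 11.8% and 10.6% of all genes, and in OV-90 1 rose (HK2) and 1 fell (ALDOC), against 9.5% and 6.56%. In OVSAHO (3.93% and 3.83% of all genes) and EFO-21 (7.11% and 7.15%) 0 changed. Smaller differences were common, since parental and resistant libraries did not overlap for 76.5%, 41.2%, 88.2% and 88.2% of the enzymes in Kuramochi, OVSAHO, OV-90 and EFO-21, against 59.2%, 48.4%, 69.1% and 59.7% of all genes. HK1 (chr10:71029740-71161640), the constitutive hexokinase that starts glycolysis, rose in Kuramochi from a range of 8.46 to 8.52 to one of 10.13 to 10.23, or 3.24-fold (log2 1.70 ± 0.053, adjusted p = 8.87e-06). HK2, the inducible hexokinase, rose in OV-90 from 5.75 and 6.74 to between 7.55 and 7.75 (1.38 ± 0.31, adjusted p = 0.0314). ALDOC (chr17:26900133-26903966), an aldolase isoform, fell there from 7.37 and 6.79 in the parent to 5.84, 5.85 and 5.85, by 1.24 ± 0.20 (adjusted p = 0.019), and both OV-90 calls were lost without parental library 2 or any 1 of the resistant libraries. The other enzyme differences lay between -0.86 (ENO2, Kuramochi) and 0.66 (PGK1, Kuramochi). PKM, the pyruvate kinase gene, differed by 0.082 ± 0.054, 0.0087 ± 0.038, -0.094 ± 0.10 and -0.092 ± 0.028 in Kuramochi, OVSAHO, OV-90 and EFO-21, and the table does not separate its M1 and M2 splice forms. Several of these enzymes (GAPDH, PGK1, ENO1, LDHA, TPI1, PGAM1 and others) have processed pseudogenes, and how reads shared with those were assigned is not given in the sources used here.

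Differences below 2-fold were resolved for many enzymes in EFO-21, where 11 of 17 were lower and 2 higher at an adjusted p under 0.05, against 23.4% and 25% of all genes at this looser rule. LDHA (chr11:18416107-18429972), which reduces pyruvate to lactate, had the largest of them: parental EFO-21 libraries measured 11.07, 10.98 and 10.99 and resistant ones 10.06, 10.18 and 10.29, a difference of -0.84 ± 0.063 (adjusted p = 0.000216). TPI1 and PGAM1, which act in the middle and lower parts of the pathway, differed by -0.67 ± 0.039 and -0.62 ± 0.041 (adjusted p = 9.36e-05 and 0.000139). In Kuramochi 4 enzymes were higher and 7 lower by the same rule (23.6% and 23.3% of all genes), among them PGK1 with 0.66 ± 0.045 and GPI with -0.78 ± 0.048. In OVSAHO 1 was higher and 4 were lower (17.1% and 16.2%), and in OV-90 3 were higher and 3 lower (18.1% and 17.9%). Centring libraries on 10 reference genes moved the median of all genes by -0.06, 0.07, 0.17 and 0.13 in Kuramochi, OVSAHO, OV-90 and EFO-21. After it 10 enzymes were lower and 3 higher in EFO-21, and in OV-90 the split became 2 lower and 6 higher. Shares of all genes by this rule were not computed after centring, so these counts show only how the split depends on it.

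LDHB (chr12:21788276-21910791), which favours the reverse reaction from lactate to pyruvate, changed less than LDHA in EFO-21. It measured 11.06, 10.95 and 11.05 in parental and 10.63, 10.75 and 10.75 in resistant libraries there (-0.31 ± 0.048, adjusted p = 0.00316). In Kuramochi LDHA went from 10.86, 10.91 and 10.92 in the parent to 10.82, 10.84 and 10.76 and LDHB from 11.34, 11.46 and 11.45 in the parent to 11.2, 11.27 and 11.27, with adjusted p = 0.177 and 0.0515. In OVSAHO LDHA went from 11.09, 11.13 and 11.35 in the parent to 11.22, 11.28 and 11.36 and LDHB from 11.99, 11.99 and 12.11 in the parent to 11.99, 12.08 and 12.04, both with overlapping groups. In OV-90 LDHA went from 9.48 and 9.67 in the parent to 9.27, 9.3 and 9.28 and LDHB from 11.72 and 11.95 in the parent to 12.02, 11.96 and 11.94 (adjusted p = 0.046 and 0.246). The lactate dehydrogenases therefore passed the 2-fold threshold in none of the lines.

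At the exit of the pathway, SLC16A3 and PDK1 moved in opposite directions in Kuramochi. SLC16A3 (MCT4, the lactate exporter of glycolytic cells; chr17:80175810-80219005) rose there from a range of 4.45 to 5.03 to one of 7.99 to 8.07, or 9.67-fold (log2 3.27 ± 0.16, adjusted p = 3.32e-05). PDK1, the kinase that shuts pyruvate out of the mitochondrial pyruvate dehydrogenase, fell from a range of 6.73 to 7.16 to one of 5.39 to 5.71 (-1.30 ± 0.16, adjusted p = 0.00112), and SLC16A1 differed by -0.70 ± 0.16 (adjusted p = 0.0131). In EFO-21, the line with by far the most SLC16A3 (parental range 10.29 to 10.44), SLC16A3 and PDK1 differed by -0.69 ± 0.058 and -0.63 ± 0.072, both at an adjusted p under 0.05 and short of 2-fold. In OV-90 PDK1 differed by 0.91 ± 0.18 (adjusted p = 0.0268), whereas SLC16A3 differed by -0.0081 ± 0.24 with overlapping groups.

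CA9 and CA12 encode membrane carbonic anhydrases that help cells export acid, and CA9 is among the most hypoxia-specific HIF targets. CA9 (chr9:35673925-35681156) lay at the bottom of the range in every library of Kuramochi, OV-90 and EFO-21, with values from 0.02 to 1.62, so that no fold can be given there. In OVSAHO, the only line with CA9 above the bottom, parental libraries measured 4.9, 5.02 and 4.89 and resistant ones 5.17, 5.05 and 4.8, which overlapped (difference 0.07 ± 0.14, adjusted p = 0.741). CA12 (chr15:63613577-63674045) showed the largest fall of the 40 genes in EFO-21, from 8.51, 8.57 and 8.47 in the parent to 5.43, 5.42 and 5.22, or to 0.112 of the parental level (log2 -3.16 ± 0.073, adjusted p = 1.17e-05). In Kuramochi, with a parental range of 6.71 to 6.99, and in OV-90, with 2.24 and 2.36 near the bottom, it differed by -0.45 ± 0.11 and 0.81 ± 0.21 (adjusted p = 0.016 and 0.0419). In OVSAHO CA12 lay at the bottom in parental library 8 (1.54) and in every resistant library (0.88 to 1.27), so no fold can be given there.

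ANGPTL4 (chr19:8428173-8439254), a secreted inhibitor of lipoprotein lipase, made the largest move of any of the 40 genes. In Kuramochi it measured 1.78, 1.7 and 1.56 in parental libraries, all at the bottom of the range, and 8.75, 8.71 and 8.82 in resistant ones (difference 7.08 ± 0.13, adjusted p = 3.44e-06). It stayed at the bottom in all OVSAHO libraries, and in OV-90 and EFO-21 it differed by 0.25 ± 0.29 and -0.52 ± 0.12 (adjusted p = 0.512 and 0.012). ADM, the vasodilator peptide adrenomedullin, rose in Kuramochi from a range of 8.91 to 9.19 to one of 10.23 to 10.26 (1.17 ± 0.081, adjusted p = 0.000109), and differed by -0.77 ± 0.21 in OV-90 and -0.66 ± 0.061 in EFO-21 (adjusted p = 0.046 and 0.000438). VEGFA, the main angiogenic factor of hypoxia, stayed within 1.39-fold in every line, with differences of 0.29 ± 0.080, 0.15 ± 0.040, 0.47 ± 0.18 and -0.18 ± 0.10 in Kuramochi, OVSAHO, OV-90 and EFO-21. NDRG1, a stress-responsive gene of growth arrest and differentiation, rose in OV-90 from 6.85 and 7.02 to between 8.29 and 8.36 (1.40 ± 0.086, adjusted p = 0.00456), differed by 0.93 ± 0.064 in Kuramochi, and by -0.75 ± 0.074 in OVSAHO (adjusted p = 0.000106 and 0.00125). In EFO-21 the 3 targets P4HA1 (a collagen prolyl hydroxylase), ANKRD37 and KDM3A (a histone demethylase) differed by -0.78 ± 0.054, -0.84 ± 0.20 and -0.29 ± 0.060, each at an adjusted p under 0.05 and short of 2-fold, and none of the 3 reached 2-fold in any line.

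Set side by side, the 16 other HIF targets and the 17 glycolytic enzymes are described by their medians and counts, beside all genes. The 5 carriers and regulators, among them the HIF target PFKFB4, are in neither list. Their medians were -0.7, -0.05, 1.7 and -0.2 in Kuramochi, OVSAHO, OV-90 and EFO-21, the last being that of SLC2A3, at the bottom. How far the contrast depends on this division was not tested. Median log2 changes of the targets were 0.41, 0.08, 0.44 and -0.65 in Kuramochi, OVSAHO, OV-90 and EFO-21, and those of the enzymes were -0.18, 0.01, -0.09 and -0.31, where the medians of all genes were -0.02, 0, -0.06 and 0.01. Of the 16 targets, 12 had a higher mean in resistant cells in each of Kuramochi, OVSAHO and OV-90, and 1 (LOX) in EFO-21. Among the 17 enzymes the numbers with a higher mean were 5, 10, 7 and 4. Of all genes 48.9%, 50.2%, 46.7% and 50.8% had a higher mean. These counts take differences of any size, some of them near 0. The target counts also include CA9 in Kuramochi (0.049) and ANGPTL4 in OVSAHO (0.36), where all libraries lay at the bottom of the range. Of the targets 5 rose and 1 fell in Kuramochi (11.8% and 10.6% of all genes), 1 rose in OVSAHO (3.93%), 4 rose in OV-90 (9.5%), and 3 fell in EFO-21 (7.15%). The single OVSAHO call is near the background, and of the 4 in OV-90 that of BNIP3 was lost on leaving out libraries, as given above. After centring on reference genes the medians of the targets were 0.34, 0.15, 0.61 and -0.51, and those of the enzymes -0.24, 0.08, 0.07 and -0.18. Those of all genes were then -0.08, 0.08, 0.1 and 0.14. The sign of the enzyme median turned in OV-90, and so did that of all genes there. After centring 11, 12, 13 and 2 targets and 5, 12, 10 and 7 enzymes had a higher mean. The share of all genes with a higher mean was not computed after centring. These are descriptions of named lists, with no test of the lists against each other.

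**Figure D3:**
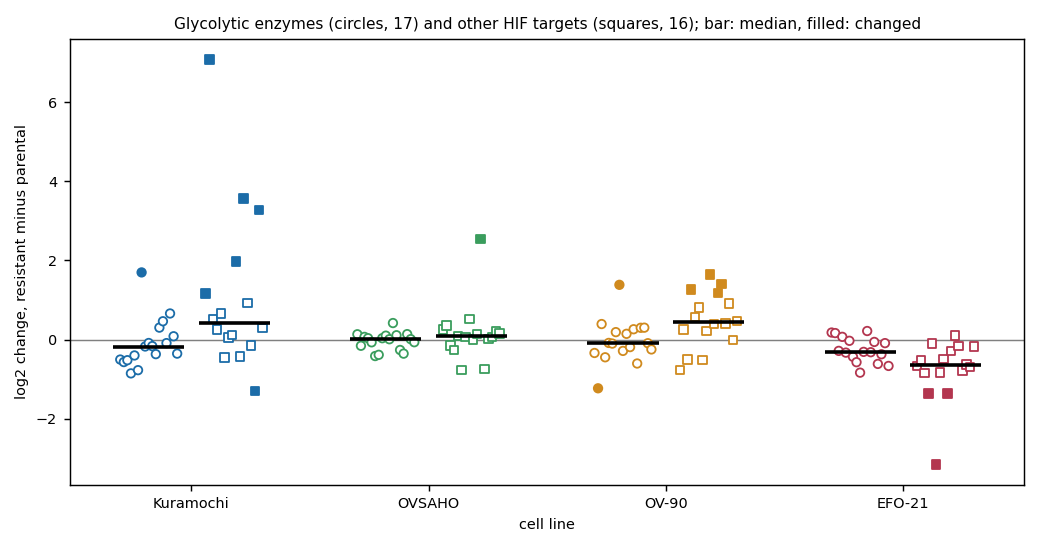
Log2 change (resistant minus parental, y axis) of the 17 glycolytic enzymes (circles) and the 16 other HIF targets (squares) in each line (x axis). Each point is a gene, bars are list medians, and filled points passed the threshold. Apart from HK1, HK2 and ALDOC the enzymes lie within 2-fold, and targets have medians of 0.41, 0.08, 0.44 and -0.65 from left to right.

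In EFO-21 the lower values reached most of the 40 genes. These genes were chosen with earlier results of these data known, so the shares of all genes below are a description. They are no independent evidence of an excess. For 31 of them all 3 resistant libraries lay below all 3 parental ones, and for 3 (PFKL, ALDOA and ALDOC) all lay above, against 29.3% and 30.4% of all genes. The 31 include CA9 and SLC2A3, for which all 6 EFO-21 libraries lay at the bottom of the range and no difference is measured. Without these it was 29 of 38 genes, which by role were 13 of 15 other HIF targets, 12 of 17 enzymes, 2 of 4 carriers and regulators, and both alpha subunits. At an adjusted p under 0.05 of any size, 27 of 40 were lower (26 without CA9) and 2 higher, against 23.4% and 25% of all genes. After reference centring the counts were 23 and 3, for which no share of all genes was computed. At the same looser rule 15 were higher and 13 lower in Kuramochi (23.6% and 23.3% of all genes), and 16 and 4 in OV-90 (18.1% and 17.9%).

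The changes themselves differed between lines. In limma's F test of the 3 differences between the 4 resistant-minus-parental changes, 38 of the 40 genes had an adjusted p under 0.05, against 75.1% of all genes, and PKM and CA9 did not (adjusted p = 0.153 and 0.222). Earlier results of these data had the hypoxia genes going the opposite way in EFO-21, and the next contrast was chosen with that known. It describes which genes carry the difference, and its p-values are no independent evidence of one. When the change in EFO-21 was set against the mean change of the other 3 lines, 8 genes were lower by at least 2-fold and 0 higher, against 8.72% and 8.49% of all genes. These were -3.27 ± 0.20 for EPAS1, -3.09 ± 0.23 for ANGPTL4, -3.02 ± 0.19 for CA12, -2.58 ± 0.14 for EGLN3, -2.33 ± 0.14 for LOX, -1.85 ± 0.19 for SLC16A3, -1.79 ± 0.11 for BNIP3 and -1.14 ± 0.21 for HIF1A, with adjusted p between 7.264e-11 and 0.0002424. In EFO-21 itself ANGPTL4, LOX and SLC16A3 differed by -0.52 ± 0.12, 0.099 ± 0.082 and -0.69 ± 0.058. LOX rose in each of the other 3 lines, whereas ANGPTL4 and SLC16A3 rose in Kuramochi alone, so their differences rest mainly on that line. None of the 8 is an enzyme of glycolysis, and the enzyme differences ranged from -0.99 ± 0.23 for HK2 to 0.82 ± 0.13 for ALDOC. Without parental OV-90 library 2 the HIF1A difference, at -0.983, no longer reached 2-fold.

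**Figure D4:**
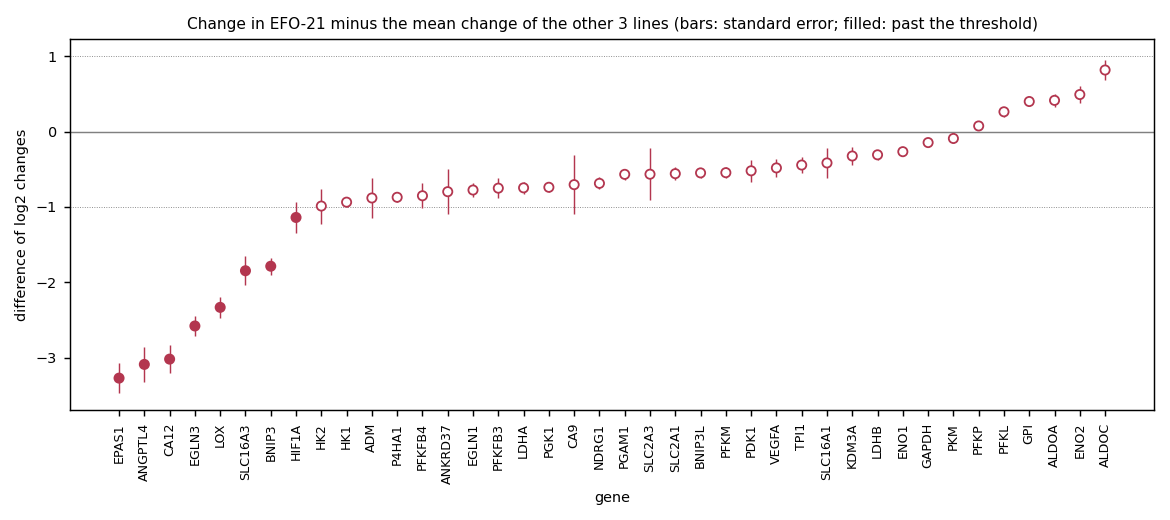
Change in EFO-21 minus the mean change of Kuramochi, OVSAHO and OV-90 (y axis, log2) for the 40 genes (x axis, ordered by value). Bars are standard errors and filled points passed an adjusted p under 0.05 and 2-fold. The contrast was chosen with earlier results of these data known. The 8 filled points run from -3.27 for EPAS1 to -1.14 for HIF1A.

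Averaged over the 4 lines, with the line as a block, 2 genes rose and 1 fell, against 2.9% and 3.2% of all genes. These were LOX at 1.88 ± 0.30 (SE, adjusted p = 0.000118), ANGPTL4 at 1.87 ± 0.69 (adjusted p = 0.04165) and SLC2A1 at -1.03 ± 0.21 (adjusted p = 0.000999). This fit counts libraries, with 1 derivation in each of the 4 lines, so its p-values do not say how a change would vary over further derivations. The LOX average covers changes of 3.57 in Kuramochi, 2.54 in OVSAHO, 1.18 in OV-90 and 0.099 in EFO-21. The ANGPTL4 call was lost without any 1 of the 6 Kuramochi libraries (adjusted p up to 0.0806), the only line in which it rose, and without resistant OV-90 library 15 (adjusted p = 0.0504). The SLC2A1 call was lost by size alone, with averages between -0.97 and -0.94 without any 1 of the 6 Kuramochi libraries or after centring on reference genes (adjusted p up to 0.00313), and it rests on changes of -2.33 ± 0.080 in Kuramochi and -1.41 ± 0.046 in EFO-21. The number of genes called in this comparison fell to 1 without parental Kuramochi library 4.

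In the parental lines the share of genes that differed was close to that of all genes: 32 of the 40 genes differed among the 4 parental lines (limma F test, adjusted p under 0.05 and a range of means of at least 1), against 79.7% of all genes. The 8 that did not were PFKM, PFKP, ALDOA, PGAM1, PKM, NDRG1, EPAS1 and EGLN1. Parental SLC16A3 means ran from 3.17 in OVSAHO through 4.77 in Kuramochi and 5.67 in OV-90 to 10.38 in EFO-21. Parental ADM means ran from 2.11 in OVSAHO to 9.08 in Kuramochi, and parental CA12 means from 1.89 in OVSAHO to 8.52 in EFO-21. HIF1A was highest in parental EFO-21 (10.41) and Kuramochi (9.49) and lowest in OV-90 (6.6), while EPAS1 lay between 6.29 and 6.86 in all 4 parental lines. With 1 derivation per line, whether the parental level bears on the direction of change was not tested.

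A shift common to a whole library cancels in the ratio of 2 related genes, since both are read in that library. The log2 ratio of SLC16A3 to SLC16A1 shifted by 3.98 in Kuramochi, from -5.41 ± 0.55 to -1.43 ± 0.25 (SD), and by -1.71 and -0.75 in OV-90 and EFO-21. The log2 ratio of HIF1A to EPAS1 shifted by 2.31 in EFO-21, from 3.58 ± 0.10 to 5.89 ± 0.26, and by -0.62, 0.73 and 0.43 in Kuramochi, OVSAHO and OV-90. For EGLN3 to EGLN1 the shifts were 1.86, -0.51, 1.42 and -0.88 in Kuramochi, OVSAHO, OV-90 and EFO-21. The ratio of HK2 to HK1 shifted by -1.87 in Kuramochi and by 1.2 in OV-90, each toward the hexokinase that rose there, and that of LDHA to LDHB by 0.08, 0.09, -0.43 and -0.53. Parental and resistant ratios did not overlap for 42 of the 52 combinations of 13 pairs and 4 lines. Values of single genes did not overlap for 59.2%, 48.4%, 69.1% and 59.7% of all genes in Kuramochi, OVSAHO, OV-90 and EFO-21. No share over other gene pairs was computed, so the count shows nothing particular to these pairs. With 3 against 3 or 2 against 3 libraries an exact two-sided permutation test cannot go below p = 0.1, so no test is given. Ratios that include CA9, or SLC2A3 outside OV-90, rest on values at the bottom of the range.

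**Figure D5:**
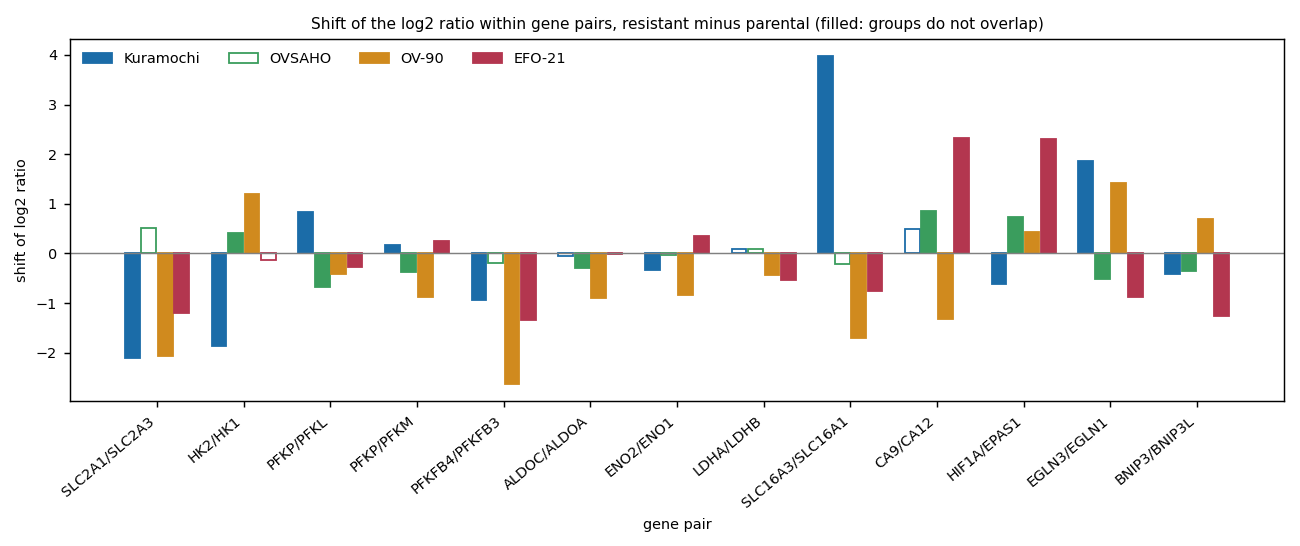
Shift of the log2 ratio (resistant minus parental, y axis) in 13 pairs of related genes (x axis) for the 4 lines. Filled bars mark pairs whose parental and resistant libraries do not overlap. The largest shift is that of SLC16A3 to SLC16A1 in Kuramochi (3.98).

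Other genes of the same pathways were read from lists that hold none of the 40, also chosen with earlier results known. Their calls were not rechecked by leaving out libraries, which matters most in OV-90. There only 309 to 425 of all genes were called without any 1 of the resistant libraries. Of 35 further HIF targets 6 rose and 3 fell in Kuramochi (11.8% and 10.6% of all genes), and 2 rose in OVSAHO (3.93%). In OV-90 5 rose and 3 fell (9.5% and 6.56%), and in EFO-21 4 fell (7.15%). The 2 in OVSAHO and the 3 that fell in Kuramochi and in OV-90 are near these shares. Median changes were 0.27, 0.02, 0.46 and -0.37 in Kuramochi, OVSAHO, OV-90 and EFO-21. In OVSAHO VLDLR (a lipoprotein receptor) rose by 1.42, from a parental mean of 1.83 near the bottom of the range (1 library lay in it). In OV-90 PPP1R3C (a glycogen-targeting phosphatase subunit) rose by 1.83 and IGFBP3 rose from the bottom of the range. In EFO-21 STC1 (stanniocalcin-1) fell from 10.81 to 7.82 (by 2.98), and BHLHE41 fell to the bottom from 3.38. Of 28 further genes of glycolysis and pyruvate use 4 rose and 2 fell in Kuramochi (11.8% and 10.6% of all genes), and 0 rose and 2 fell in OVSAHO (3.93% and 3.83%). In OV-90 3 rose and 4 fell (9.5% and 6.56%), and in EFO-21 5 rose and 1 fell (7.11% and 7.15%). PDK4, which like PDK1 inhibits pyruvate dehydrogenase, rose in Kuramochi by 2.59 while PDK1 fell. LDHD fell by 1.17 in OVSAHO, PCK2 (mitochondrial PEP carboxykinase) fell by 2.02 in OV-90, and SLC16A7 (MCT2) rose by 1.97 in EFO-21. Of 7 pentose phosphate genes 1 rose in Kuramochi (11.8% of all genes) and 1 fell in OV-90 (6.56%). It was PGLS in both cases (1.06 and -1.10).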

How the data were processed

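The authors aligned RNA-seq reads with the GSNP algorithm to GRCh37/hg19, excluded exons with fewer than 10 reads in over 80% of samples, combined exons with a robust linear model and quantile normalized the result. The deposited values are log2 expression per NCBI Gene ID for 21658 genes, of which 20745 (95.8%) matched a RefSeq symbol, and all 40 genes here came from the robust model over 7 to 74 exons. A deposited column of mean exon weights, a fraction per gene from the authors' model, was not used. No counts are in the table, so depth is unknown. Quantile normalization hides a shift common to most genes. Libraries were grouped by line and resistance from the column names.

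Resistant and parental libraries were compared per line with limma 3.58.1 (R 4.3.3; lmFit, eBayes with trend, two-sided) on the values as deposited, unfiltered. The average change used the line as a block, and differences between lines used 8 group means in 1 fit. P-values were adjusted by Benjamini-Hochberg over all genes. The code was tested on simulated data. Alternatives were 1 fit of all libraries, no trend, a filter at the 25th percentile, centring on 10 reference genes, other thresholds, and leaving out each library.

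The 40 genes, the lists and the contrast of EFO-21 with the other lines were chosen with earlier results of these data known. Given with every library are genes changed in at least 2 lines or in opposite directions, the largest rise and fall per line, HIF1A, EPAS1, EGLN1, EGLN3, SLC2A1, LDHA, LDHB and CA9, and of the other lists the HIF control genes and the 2 largest rises and falls per line (some of these are not reported here). Others singled out, such as SLC16A3 and PGLS, were named after their values were seen. Of 30 further glycolysis genes listed, 28 were in the table (not HK3 and LDHC). Gene positions are from GENCODE in GRCh37.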

Additional observations from a re-analysis of the deposited data

Results flagged for a closer look

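The changes of 38 of the 40 genes differed among the 4 lines in the limma F test, where 75.1% of all genes did. For 8 genes the change in EFO-21 differed from the mean change of Kuramochi, OVSAHO and OV-90 past the threshold, all downward. That contrast was chosen with earlier results of these data known and is a description. The differences on the log2 scale were -3.27 for EPAS1, -3.09 for ANGPTL4, -3.02 for CA12, -2.58 for EGLN3, -2.33 for LOX, -1.85 for SLC16A3, -1.79 for BNIP3 and -1.14 for HIF1A. For CA12 the difference comes with parental OVSAHO library 8 and every resistant OVSAHO library at the bottom of the range. For ANGPTL4 it comes with parental Kuramochi and all OVSAHO values there, so these 2 are not measured fold differences. The LOX difference rests in part on parental Kuramochi library 6 (1.81), also at the bottom. The ANGPTL4 and SLC16A3 differences rest mainly on Kuramochi, the only other line in which these 2 genes rose. With at most 3 libraries a group, no outlier test within groups was made. Parental Kuramochi library 4 lay above libraries 5 and 6 for HIF1A (9.82 against 9.35 and 9.31), EPAS1 (6.68 against 6.1 and 6.09) and HK2 (8.15 against 7.45 and 7.56), and 9 of the 40 genes changed in Kuramochi with or without it.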

How the results depend on the processing

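Of 38 calls on single genes, 27 kept their call under every alternative tried, 11 lost it under at least 1, and 0 reversed. Of the 11 OV-90 calls 8 were lost under at least 1 alternative. Leaving out single libraries gave between 3 and 11 changed genes in OV-90 (3 without any 1 of the resistant libraries: NDRG1, EGLN3 and LOX) and between 1 and 4 on average over the lines, the 1 being without parental Kuramochi library 4. A lone parental OV-90 library was assumed to vary like the others in the fit. With a 1.5-fold threshold 17, 4, 15 and 15 genes changed in Kuramochi, OVSAHO, OV-90 and EFO-21, 5 on average, and 20 in EFO-21 against the other lines. With no size threshold the counts were 28 in Kuramochi, 13 in OVSAHO, 20 in OV-90 and 29 in EFO-21, 14 on average, and 34 in EFO-21 against the other lines. Shares of all genes are given above for the single lines with no size threshold and were not computed for the rest. These counts therefore show only how the calls depend on the threshold. The signs that turned belonged to uncalled differences near 0. Centring on reference genes gave -0.014 for CA9 in Kuramochi, 0.021 for SLC2A1 in OVSAHO and 0.008 for SLC2A1 in OV-90. Leaving out libraries gave -0.28 to 0.311 for CA9 in Kuramochi, -0.015 to 0.046 for LDHB in OVSAHO, -0.013 to 0.174 for CA9 in OVSAHO and -0.065 to 0.097 for EGLN3 in OVSAHO. Centring also moved the split of called genes from 2058 higher and 1420 lower to 2755 and 985 in OV-90, and from 1540 and 1548 to 1997 and 1308 in EFO-21. The causes were not tested. No paired analysis was possible because the table's columns carry library numbers and not the replicate numbers of the labels. Depth is unknown, so its limit on low values cannot be stated.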
